A study of Mus musculus with 12 samples.

Results

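Complement genes were followed in peritoneal macrophages (Mϕ) at day 6 of zymosan-induced peritonitis, when the inflammation was resolving. The 9 genes C1qa, C1qb, C1qc, C4b, C3, Cfb, Cfp, C3ar1 and C5ar1 were picked by symbol out of the 47643 genes listed, and all 9 passed the filter on low values in both subpopulations. Female C57BL/6 mice of 8 to 12 weeks received 5 mg/kg zymosan, a yeast cell wall particle, into the peritoneum. From day 1 onwards they were given daily injections of either 25 mg/kg CIII, compound III, an inhibitor of the prostaglandin E2-producing enzyme mPGES-1, or its vehicle (VEH) of Tween-80, carboxymethyl cellulose and NaCl. Mϕ were sorted as CD45+ CD11b+ cells into an F4/80lo MerTKlo MHCII+ and an F4/80hi MerTKhi subpopulation, and 3 libraries were sequenced for each of the 4 groups, 12 in all. All 4 groups carried the zymosan stimulus, and no library came from an untreated mouse. No pooling or pairing of mice is described, so p-values measure the spread between these libraries.

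Complement is a cascade of proteases and opsonins that marks particles and dying cells for uptake. The classical pathway starts with C1q, a hexamer of trimers built from the C1qa, C1qb and C1qc chains, and runs over C4 to C3, while the alternative pathway amplifies C3 cleavage with factor B (Cfb) and the stabilising protein properdin (Cfp). Cleavage of C3 and C5 releases the peptides C3a and C5a, which act on the receptors C3ar1 and C5ar1. Most circulating complement comes from the liver, but Mϕ are the main source of C1q and make other components locally.

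The annotated genes (GRCm38) all lie on the minus strand. C1qa (chr4:136895917-136898803), C1qc (chr4:136889804-136893065) and C1qb (chr4:136880129-136886187) sit next to each other within 18.7 kb. C4b (chr17:34728380-34743882) and Cfb (chr17:34856374-34862518) lie in the MHC region, together within a stretch of 134 kb. C3 (chr17:57203970-57228136) is on the same chromosome further along. Cfp is on the X chromosome (chrX:20925454-20931555), C3ar1 at chr6:122847138-122856161 and C5ar1 at chr7:16246743-16259540.

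RefSeq promoter windows (GRCm38.p6) were found for 6 of the 9 genes and not for C1qa, C4b and Cfb. The 250 bases before the start of C1qb, Cfp and C3 are shown here because these genes parted most clearly by replicate number (C1qb and Cfp lower, C3 higher, described last). Each run is the minus strand, 5′ to 3′, of chr4:136886201-136886450 for C1qb, chrX:20931556-20931805 for Cfp and chr17:57228137-57228386 for C3. Capitals mark matches to 5 searched motifs or their reverse complements.
C1qb: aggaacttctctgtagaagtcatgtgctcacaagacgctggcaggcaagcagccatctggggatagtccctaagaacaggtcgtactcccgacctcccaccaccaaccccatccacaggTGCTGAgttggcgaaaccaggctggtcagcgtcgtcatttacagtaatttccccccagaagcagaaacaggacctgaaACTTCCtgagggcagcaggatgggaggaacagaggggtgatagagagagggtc
Cfp: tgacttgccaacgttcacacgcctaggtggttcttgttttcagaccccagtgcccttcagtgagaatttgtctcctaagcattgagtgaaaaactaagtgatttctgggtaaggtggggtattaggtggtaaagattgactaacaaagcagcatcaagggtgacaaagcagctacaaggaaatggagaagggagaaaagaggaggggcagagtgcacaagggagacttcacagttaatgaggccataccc
C3: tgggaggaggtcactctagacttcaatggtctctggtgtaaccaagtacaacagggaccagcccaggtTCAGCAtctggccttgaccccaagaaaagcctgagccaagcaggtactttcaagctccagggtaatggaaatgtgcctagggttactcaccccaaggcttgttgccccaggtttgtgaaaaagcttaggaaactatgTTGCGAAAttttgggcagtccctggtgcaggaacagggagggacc
The motifs searched on both strands were GGAAGT (the ETS core that PU.1 reads), TGCTGA (a MAF half-site), TTGCNNAA (C/EBP), TGANTCA (AP-1) and the NF-kB motif, of which the MAF and AP-1 letters can overlap. C1qb held 1 GGAAGT and 1 TGCTGA, C3 held 1 TGCTGA and 1 TTGCNNAA, and Cfp held none. Among 32851 promoter windows of the same table, GGAAGT was present in 19.7%, TGCTGA in 16.1%, TTGCNNAA in 9.56%, TGANTCA in 6.75% and the NF-kB motif in 0.980%, so these matches are common and describe letters only.

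The libraries held 426624 to 3389448 reads on genes, and a count of 0 allows up to 3 reads, or 0.885 to 7.03 reads per 1000000 (RPM), for counting error only. The 4 libraries with replicate number 3 stood apart. A single gene, Gm42418, accounted for 14.3% (F4/80lo) and 7.82% (F4/80hi) of the reads in the VEH libraries of number 3. In the CIII libraries of number 3 it took 2.65% and 2.86%, and elsewhere never more than 0.579%. Libraries of number 3 thus differed between the treatments in this share. Its part in the differences between CIII and VEH within number 3 was not tested. The number 3 libraries of F4/80hi Mϕ also went against their sort label in the resident markers. The summed level of 10 resident Mϕ markers was 6414 to 9032 RPM in F4/80hi libraries 1 and 2, 747 and 1301 in F4/80hi libraries 3, and 603 to 1894 in F4/80lo libraries. Adgre1, which encodes F4/80, had 1064 to 1336 RPM in F4/80hi libraries 1 and 2, 366 and 368 in F4/80hi libraries 3 and 205 to 381 in F4/80lo libraries. Ccr2, a monocyte chemokine receptor, had 1199 and 704 RPM in F4/80hi libraries 3, 20.2 to 306 in F4/80hi libraries 1 and 2 and 442 to 2289 in F4/80lo libraries, while Mertk did not separate the sorts (169 to 435 over F4/80hi, 193 to 450.0 over F4/80lo libraries). H2-Ab1, an MHCII chain, had 680 to 8376 RPM over F4/80lo and 173 to 3984 over F4/80hi libraries. The 6 pan-macrophage genes summed to between 8751 and 27923 RPM in every library. Sums of 10 neutrophil markers were 23.1 to 126, of 7 B cell markers 0 to 189, of 7 T and NK cell markers 1.45 to 44.5, of 7 dendritic cell markers 1.35 to 260 and of 7 mast cell and eosinophil markers 0 to 16.9 RPM. The 10 mesothelial and fibroblast markers reached at most 2.39, with 5 of them at 0 in every library. The summed level of 10 monocyte-derived Mϕ markers was 15509 to 27949 RPM in 5 F4/80lo libraries and 4409 in F4/80lo VEH library 3, and 1301 to 14426 in F4/80hi libraries, the highest being CIII library 3. F4/80lo VEH library 3 was thus low in that sum, but its 1379 RPM of Ccr2 lay within the range of its sort and its resident marker sum of 603 was the lowest of the 12. Estimates of the 9 genes are therefore also given without number 3.

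Reads covered few of the other genes of the cascade. Of 51 other complement genes listed, 18 had 0 reads in all 12 libraries and 16 had 1 to 20 reads. The 7 genes of the terminal pathway, which builds the membrane attack complex, had 6 reads in total and 5 of them had none. C2, the classical pathway protease, had 6 reads, all in 1 library, and Cfd, the alternative pathway protease factor D, had 1 read. In 3′ libraries a transcript is read at its 3′ end alone, so counts do not scale with its length. All 9 genes of interest had reads in every library, from 10 reads for Cfb in the shallowest library to 4629 for C1qa. C1q took 0.195% to 0.768% of all reads of a library. In bulk libraries a lower level can come from fewer expressing cells or from less RNA per cell, and these cannot be told apart.

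**Figure D1:**
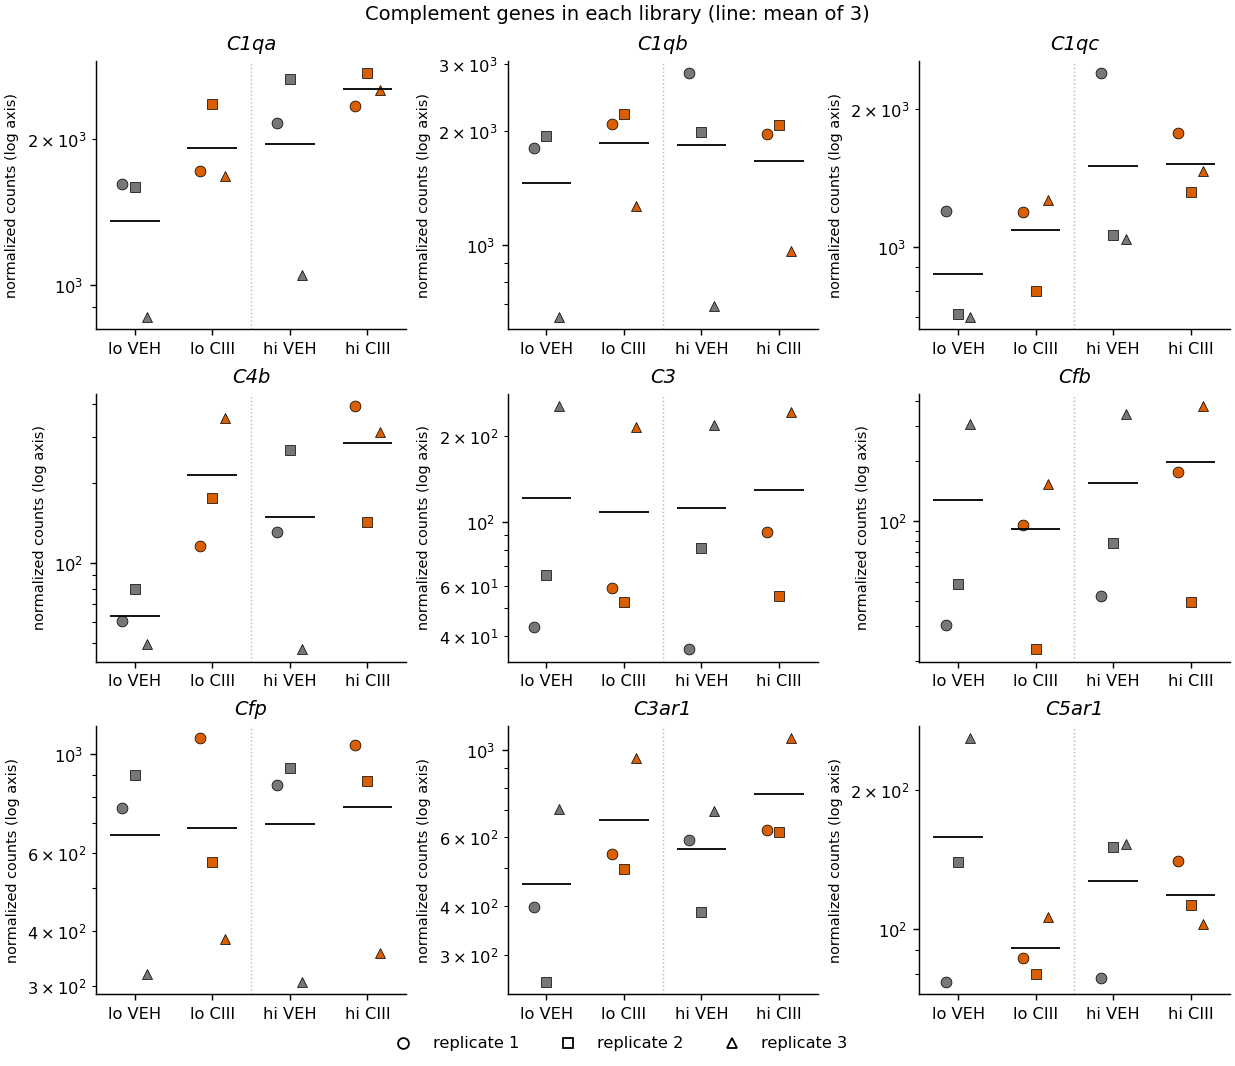
Deposited normalized counts of the 9 complement genes in each library, on log axes, by subpopulation (lo, hi) and treatment (VEH grey, CIII orange); symbols give the replicate number and lines the mean of 3. C4b in F4/80lo Mϕ shows all 3 CIII libraries above all 3 VEH libraries, and C3, C3ar1, C1qb and Cfp part the triangles of number 3 from the rest.

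The first question was whether inhibition of mPGES-1 altered these genes within a subpopulation. C4b, the complement component whose cleavage product binds covalently to targets, had the largest difference of the 9 genes in both subpopulations, though without number 3 this held in F4/80lo Mϕ and not in F4/80hi Mϕ, where Cfb, C3 and C3ar1 then exceeded it. In F4/80lo Mϕ it had 60.5, 79.6 and 49.3 normalized counts in VEH libraries 1, 2 and 3 and 116, 176 and 353 in the CIII libraries. Every CIII library lay above every VEH library, with means of 63.1 ± 15.3 and 215.0 ± 122.9 (SD, n = 3 each). The log2 fold change was 1.63 with a standard error of 0.44 (limma p = 0.00322, adjusted p = 0.9996, exact permutation p = 0.1). Blocking on the replicate number, limma gave an adjusted p of 0.527. C4b was higher with CIII within each number, by 0.93, 1.13 and 2.81 on the log2 scale, and the estimate was 1.03 without number 3 and 1.46 without F4/80lo VEH library 3 alone. The VEH libraries of F4/80hi Mϕ had 132, 268 and 47.2 normalized counts of C4b and the CIII libraries 393, 143 and 314. There the treatments overlapped, since CIII library 2 lay below VEH library 2. The log2 fold change was 1.13 with a standard error of 0.63 (limma, adjusted p = 0.992), and 0.34 without number 3. The neighbouring copy C4a is 98.3% identical to C4b over the last 300 transcript bases and had 26 reads over all libraries, so a few reads could be exchanged between the copies.

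None of the 9 genes was called by limma at an adjusted p of 0.05 in either subpopulation, and nor was any gene tested (0% of 10718 for F4/80lo, 0% of 10499 for F4/80hi). An unadjusted limma p under 0.05 was reached by 289 genes (2.7%) of F4/80lo and 413 (3.93%) of F4/80hi Mϕ. Among the complement genes it was reached by C4b in F4/80lo Mϕ and by none in F4/80hi Mϕ. Adjusted counts were also 0 and 0 with edgeR and were 2 and 0 with DESeq2 on the recovered reads, none of them a complement gene. Treatments did not overlap for 2 of the 9 genes in F4/80lo Mϕ, C1qa and C4b, where 8.73% of all genes did not. Both had all CIII libraries on the upper side, like 3.82% of all genes. For F4/80hi Mϕ this held for 0 of the 9 genes, against 10.5% of all genes without overlap and 4.73% with CIII on the upper side. With 3 libraries in each group, the exact permutation test has a smallest possible p of 0.1, which C4b and C1qa reached in F4/80lo Mϕ. The estimates were positive for 6 of the 9 genes in F4/80lo Mϕ (median 0.34 on the log2 scale, −0.05 over all genes) and for 8 of 9 in F4/80hi Mϕ (median 0.31, 0.05 over all genes). Without number 3 they were positive for 7 of 9 in both, with medians of 0.21 and 0.21.

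None of the C1q chains passed the test with CIII. C1qa had 1615, 1593 and 856 normalized counts in VEH libraries 1, 2 and 3 of F4/80lo Mϕ and 1716, 2369 and 1677 with CIII. The groups did not overlap, but VEH library 1 and CIII library 3 were close. Its log2 fold change was 0.54 with a standard error of 0.42 (exact permutation p = 0.1), 0.33 without number 3 and 0.24 without VEH library 3 alone. F4/80hi Mϕ had 2163, 2673 and 1045 normalized counts of C1qa under VEH and 2346, 2741 and 2532 under CIII, which gave 0.48 on the log2 scale (standard error 0.47, exact permutation p = 0.3). VEH library 3 alone was low there, and the estimate without number 3 was 0.08. C1qa was thus higher with CIII in all 6 pairs of the same subpopulation and number. So was C3ar1, and 4.08% of 10097 genes did the same. C1qb and C1qc were estimated at 0.46 and 0.34 for F4/80lo and at 0.0001 and 0.12 for F4/80hi Mϕ on the log2 scale, with exact permutation p-values from 0.3 to 1. The normalized counts of C1qb were 1463 ± 711 under VEH and 1862 ± 518 under CIII for F4/80lo, and 1841 ± 1083 and 1665 ± 610.2 for F4/80hi Mϕ (SD). Those of C1qc were 869 ± 282 and 1086 ± 251 for F4/80lo, and 1498 ± 777 and 1515 ± 233 for F4/80hi Mϕ. Without number 3 the estimates of C1qb were 0.21 for F4/80lo and −0.24 for F4/80hi Mϕ, and those of C1qc were 0.082 and −0.062, so no direction of either was common to the subpopulations. Leaving out F4/80lo VEH library 3 alone brought C1qb to −0.049 in F4/80lo Mϕ.

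The central component and the alternative pathway showed no common direction. C3, the protein on which all pathways converge, had 43.1, 65.5 and 254 normalized counts in VEH libraries 1, 2 and 3 of F4/80lo Mϕ and 58.9, 52.5 and 214 with CIII. F4/80hi Mϕ had 35.9, 81.0 and 218 normalized counts of C3 with VEH and 92.4, 55.3 and 241 with CIII. Each group thus spanned from a low to a high level, the high one being number 3, and the log2 fold changes were −0.04 (standard error 0.68) and 0.31 (standard error 0.70). For Cfb the VEH libraries of F4/80lo Mϕ had 30.3, 48.8 and 306 normalized counts and the CIII ones 96.5, 22.8 and 155. In F4/80hi Mϕ Cfb had 42.5, 78.4 and 345 with VEH and 176, 39.7 and 379.6 with CIII. Cfb was higher with CIII within number 1, by 1.64 and 2.02, and lower within number 2, by −1.06 and −0.97 on the log2 scale. Pooled, the log2 fold changes of Cfb were −0.13 (standard error 0.84) and 0.40 (standard error 0.90). The 95% intervals of C3 ran from −1.53 to 1.45 for F4/80lo and from −1.27 to 1.90 for F4/80hi Mϕ, and those of Cfb from −1.97 to 1.70 and from −1.64 to 2.44. All 4 intervals include 2-fold changes in both directions. Properdin, Cfp, stood at 659.6 ± 302 normalized counts under VEH and 682 ± 365 under CIII for F4/80lo, and at 698 ± 341 and 760.2 ± 361 for F4/80hi Mϕ (SD). Its log2 fold changes of 0.04 and 0.14 were within the spread between libraries. Without number 3, the F4/80lo and F4/80hi estimates were 0.065 and 0.40 for C3, 0.29 and 0.53 for Cfb and −0.065 and 0.10 for Cfp, so those of all 3 genes changed sign in F4/80lo Mϕ. The Cfb locus is overlapped on the same strand by the annotated gene Gm20547, to which 0 reads were assigned.

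Neither anaphylatoxin receptor passed the test. C3ar1, the receptor of C3a, had 399, 257 and 707 normalized counts in F4/80lo VEH libraries 1, 2 and 3 and 541, 498 and 949.6 under CIII. Its F4/80hi values were 590.3, 385 and 699 with VEH and 626, 618 and 1069 with CIII. The groups overlapped in both, although CIII exceeded VEH within every number. The log2 fold changes of C3ar1 were 0.61 (standard error 0.44) and 0.46 (standard error 0.39), both with an exact permutation p of 0.4. With the replicate block, C3ar1 joined C4b below an unadjusted p of 0.05 in F4/80lo Mϕ, where 6.89% of all genes did so, but its adjusted p was 0.710 (limma), and 0 of the 9 genes did in F4/80hi Mϕ, against 11.3%. Without number 3 its estimates were 0.70 and 0.38. C5ar1, the receptor of C5a, had 76.8, 139.9 and 259 normalized counts in the F4/80lo VEH libraries and 86.5, 80.0 and 106 in the CIII ones. The VEH libraries spanned a wide range and the CIII libraries a narrow one at its lower end, and the log2 fold change was −0.64 (standard error 0.44, exact permutation p = 0.4) or −0.31 without number 3. The F4/80hi values of C5ar1 were 127 ± 42.3 normalized counts under VEH and 118 ± 19.5 under CIII (SD), with an estimate of −0.05 that turned to 0.21 without number 3.

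**Figure D2:**
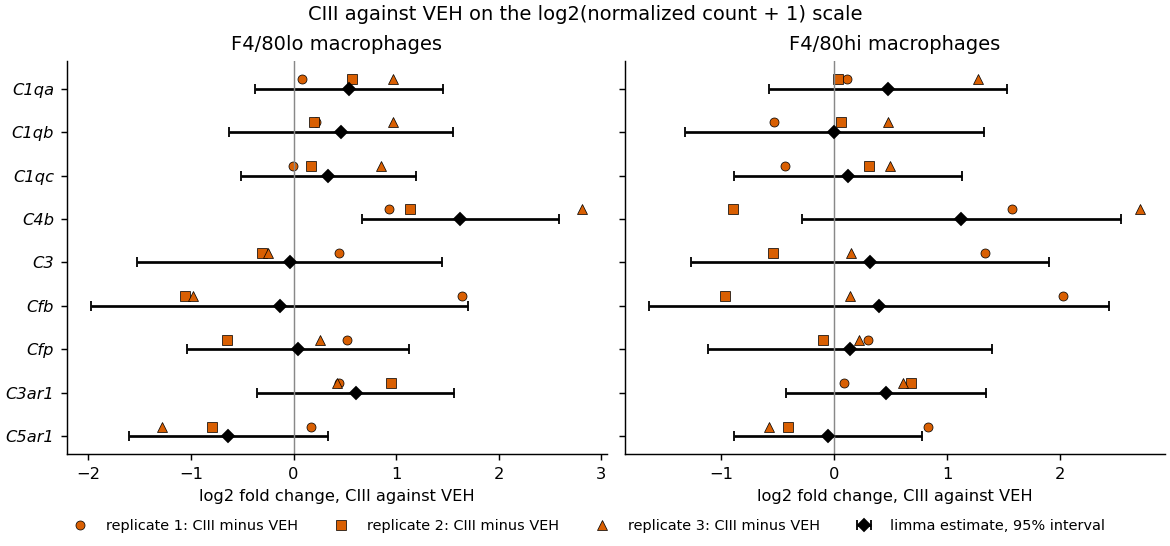
Log2 fold change of CIII against VEH on the log2(normalized count + 1) scale in F4/80lo and F4/80hi Mϕ; black diamonds and bars give limma's estimate with its 95% interval, orange symbols the difference within each replicate number. Only the interval of C4b in F4/80lo Mϕ, centred on 1.63, lies clear of 0.

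Other complement genes gave no call with CIII. Of the 51 listed, 13 were tested for F4/80lo and 16 for F4/80hi Mϕ, where 8 and 12 had a positive estimate and 0 and 0 an adjusted limma p under 0.05. With the replicate block, too, no gene was called in either subpopulation. Calr, which encodes the C1q-binding chaperone calreticulin, lay below an unadjusted limma p of 0.05 with that block in F4/80lo Mϕ, as 6.89% of all genes did. Its log2 fold change there was −0.73 (limma, adjusted p = 0.710 with the block). The direction of Calr was not common to the numbers, with 0.25 in number 1, −1.20 in number 2 and −1.23 in number 3 on the log2 scale. C5ar2, the other C5a receptor, was weakly expressed and was the 1 gene of the 16 tested whose treatments did not overlap in F4/80hi Mϕ, where 10.5% of all genes did not, with 6.65, 5.23 and 8.38 normalized counts with VEH and 8.66, 10.8 and 9.85 with CIII. The membrane regulator Cr1l, the rodent complement receptor 1-like protein, was estimated at 0.11 and 0.14, and the C1q-linked surface protein Cd93 at −0.33 and 0.30 on the log2 scale.

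Levels were then compared between the subpopulations. Because the authors normalized the subpopulations separately, the recovered reads were rescaled together to RPM with TMM factors (TMM-scaled RPM), which is the scale of all levels from here on. All 9 complement genes had a lower mean in F4/80lo than in F4/80hi Mϕ on the log2 scale, where 5385 of 10726 genes tested were lower. The estimates ran from −0.82 for Cfb to −0.15 for C1qb with a median of −0.42, against −0.003 over all genes. C1qc gave the smallest p of the 9 genes. It had 1170.1, 702 and 733 with VEH and 1219.9, 772 and 1263 with CIII in F4/80lo, and 2534, 1129 and 1111 with VEH and 1959.8, 1428 and 1609 with CIII in F4/80hi Mϕ. The F4/80hi library exceeded its F4/80lo partner of the same treatment and number in all 6 pairs of C1qc, although the 6 libraries of each sort overlapped. The difference was −0.72 on the log2 scale with a standard error of 0.28 (limma, adjusted p = 0.449). C1qa had a median of 1626 (895 to 2289) over F4/80lo and 2693 (1117 to 2976) over F4/80hi libraries, a difference of −0.56 (standard error 0.29, limma, adjusted p = 0.583). C1qb, by contrast, had a median of 1839.9 (676 to 2149.8) and 2145 (739 to 3006) and differed by −0.15 (standard error 0.40).

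Cfb had the largest estimate of the 9 genes. It had a median of 73.5 (22.1 to 320.1) over F4/80lo and 139 (43.1 to 418) over F4/80hi libraries, and C3ar1 518 (253 to 946) and 682 (411 to 1178). Both were higher in F4/80hi Mϕ in all 6 pairs, with differences of −0.82 (standard error 0.73) and −0.42 (standard error 0.31). In all, F4/80hi was higher in all 6 pairs for 4 of the 9 genes, C1qa, C1qc, Cfb and C3ar1, where 5.12% of all genes did so, and F4/80lo for 0 of 9, where 5.65% did. C4b had a median of 98.8 (51.5 to 351) over F4/80lo and 220.4 (50.4 to 435) over F4/80hi libraries and a difference of −0.79 (standard error 0.41, adjusted p = 0.583 from limma). It was lower in F4/80lo Mϕ in 3 pairs, by −1.22, −1.85 and −1.86, and close to even in the other 3, at 0.032, 0.13 and 0.023 on the log2 scale. C3 (−0.23), Cfp (−0.22) and C5ar1 (−0.20) differed by less than their standard errors of 0.57, 0.40 and 0.30. Ordered by their means over the 4 groups, 7 of the 9 genes were highest in F4/80hi CIII and 6 were lowest in F4/80lo VEH libraries. Of the 27 pairs of neighbouring groups in these orders, 25 overlapped. Exceptions were C1qa between F4/80lo VEH and F4/80lo CIII and C5ar1 between F4/80lo CIII and F4/80hi CIII. No such orders were computed over all genes, so these counts only describe the 9 genes and do not set them apart from others.

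In the test across all genes, 2 of 10726 genes (0.0186%) passed an adjusted limma p under 0.05, and 0 of the 9 complement genes were among them. An unadjusted p under 0.05 was reached by 9.29% of all genes and by C1qc. Blocking on the replicate number raised the calls to 279 genes (2.6%), 0 of them among the 9, and left C1qc at an adjusted p of 0.0544. Blocking on treatment and number together, which compares the partners directly, gave 549 genes (5.12%), and C1qc (limma, adjusted p = 0.0164) and Cfb (limma, adjusted p = 0.0132) were then called lower in F4/80lo Mϕ. C1qa missed the threshold in that fit (limma, adjusted p = 0.0666). Without number 3, whose F4/80hi libraries went against the sort, all 9 genes were still lower in F4/80lo Mϕ with a median of −0.54, and 348 genes were called but none of the 9. The smallest adjusted p was then that of C4b, with a difference of −1.20 (limma, adjusted p = 0.0582). The others were −0.58 for C1qa, −0.25 for C1qb, −0.84 for C1qc, −0.31 for C3, −0.82 for Cfb, −0.32 for Cfp, −0.54 for C3ar1 and −0.45 for C5ar1. The marker sums and the level of Ccr2 differed between libraries of the same sort as given above, and their part in these differences was not tested.

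Among the other complement genes, 15 were tested between the subpopulations and 10 were lower in F4/80lo Mϕ. C1ra, a C1 subcomponent protease that works together with C1q, was the 1 listed gene whose 6 F4/80lo libraries (7.60 to 28.5) all lay below the 6 F4/80hi libraries (29.1 to 87.2), as 0.839% of all genes did in either direction. Its difference was −1.58 on the log2 scale with a standard error of 0.36 (limma, adjusted p = 0.139), and its adjusted p was 0.0124 with the replicate block. Fcna, ficolin A, a lectin pathway opsonin of Mϕ, had 5.22 to 285 over F4/80lo and 7.84 to 661 over F4/80hi libraries and was higher in F4/80hi Mϕ in all 6 pairs, with a difference of −1.77 (adjusted p = 0.658 from limma, 0.0584 with the replicate block and 4.27e-05 with the treatment and number block). The alpha chains of complement receptors 3 and 4 had estimates of opposite sign. Itgam, the alpha chain of complement receptor 3 (CD11b, also the sort marker), had 1934 to 3150.3 over F4/80lo and 2629 to 9442 over F4/80hi libraries, and Itgax, that of complement receptor 4 (CD11c), 2.44 to 117 and 0.603 to 8.44. Their differences were −1.27 and 3.34 on the log2 scale, with an adjusted p of 0.284 and 0.139 in limma and of 0.00855 and 0.00480 with the replicate block. The 3 dendritic cell markers that passed the filter on low values had estimates on the same side as Itgax, with 4.09 for Cd209a, 3.37 for Flt3 and 2.75 for Zbtb46, and the 7 listed summed to 5.02 to 260 RPM over F4/80lo and 1.35 to 21.7 over F4/80hi libraries. Their part in the difference of Itgax was not tested. The study's gating set CD11c+ MHCII+ cells aside as dendritic cells. Vsig4, the complement receptor of the immunoglobulin superfamily typical of resident Mϕ, differed by −2.25 (adjusted p = 0.429 from limma and 0.0368 with the replicate block), with 0 to 15.4 over F4/80lo and 2.24 to 90.5 over F4/80hi libraries. Cd93 differed by −0.94 and the membrane attack complex inhibitor Cd59a by −2.38, with an adjusted p of 0.363 and 0.278 in limma, 0.0874 and 0.0512 with the replicate block and 0.00868 and 0.0372 with the treatment and number block. Cr1l (0.02) differed by less than its standard error of 0.21.

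**Figure D3:**
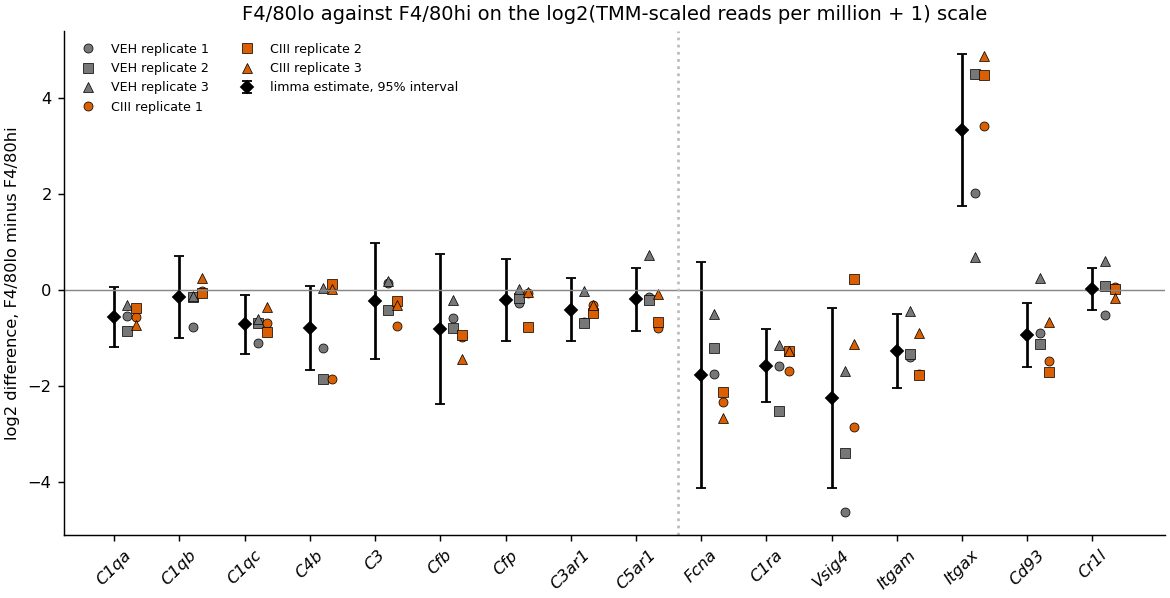
Difference between F4/80lo and F4/80hi Mϕ on the log2(TMM-scaled RPM + 1) scale, for the 9 complement genes (left of the dotted line) and 7 further complement genes (right); black diamonds and bars give limma's estimate with its 95% interval, other symbols the 6 pairs of the same treatment and number. Estimates of the 9 genes lie between −0.82 and −0.15, and Itgax at 3.34 stands on the opposite side.

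The CIII responses of both subpopulations were also tested against each other (F4/80lo response minus F4/80hi response). Of 10726 genes, 0 (0%) were called at an adjusted p of 0.05 by limma, 198 (1.85%) had an unadjusted p under 0.05, and edgeR and DESeq2 called 0 and 0. For the 9 complement genes this difference lay between −0.64 for C5ar1 and 0.44 for C4b on the log2 scale, with a smallest adjusted p of 0.9996 (limma). For C4b it had a 95% interval from −1.32 to 2.20, so responses of C4b that differ by 2-fold in either direction cannot be told from equal ones here. Without number 3 it was 0.67.

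Levels of 4 of the 9 genes separated the number 3 libraries from all others. C3 had 214 to 266 in the 4 libraries of number 3 and 38.0 to 102 in the other 8, and C3ar1 739.7 to 1178 and 253 to 693. C1qb had 676 to 1265 in number 3 and 1766 to 3006 in the others, and Cfp 328 to 393 and 554 to 1165. In each of these 4 genes the number 3 libraries of both treatments and both sorts lay entirely on 1 side. All number 3 libraries lay above the other 8 in 8.2% of all genes and below them in 3.81%, against 2 and 2 of the 9 complement genes. The mean log2 difference was 2.0 for C3, 0.86 for C3ar1, −1.26 for C1qb and −1.31 for Cfp, against −0.16 for C4b and −0.15 for C1qc. Cfb was also high in number 3 (154 to 418 against 22.1 to 195, a mean log2 difference of 2.37), with F4/80lo CIII library 3 below the highest of the others. Among the other complement genes Fcna had 5.22 to 124 in number 3 and 75.0 to 661 elsewhere. What sets the number 3 libraries apart is not given in the sources used here. Their replicate number, the level of Gm42418 and, in F4/80hi Mϕ, the marker levels given above moved together and cannot be told apart.

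The chains of C1q, which are assembled in equal amounts, also moved unequally by number. C1qb made up 32.2% to 45.7% of all C1q reads in numbers 1 and 2 and 19.4% to 30.1% in number 3, so the ranges did not overlap. C1qc held 14.8% to 32.4% and 29.5% to 37.4%, and C1qa 29.2% to 46.7% and 37.6% to 51.1%. The whole of C1q took 0.467% to 0.768% of all reads in numbers 1 and 2 and 0.195% to 0.520% in number 3. Within each number, the share of C1qc was close between libraries, at 23.8% to 32.4% in number 1, 14.8% to 21.5% in number 2 and 29.5% to 37.4% in number 3.

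**Figure D4:**
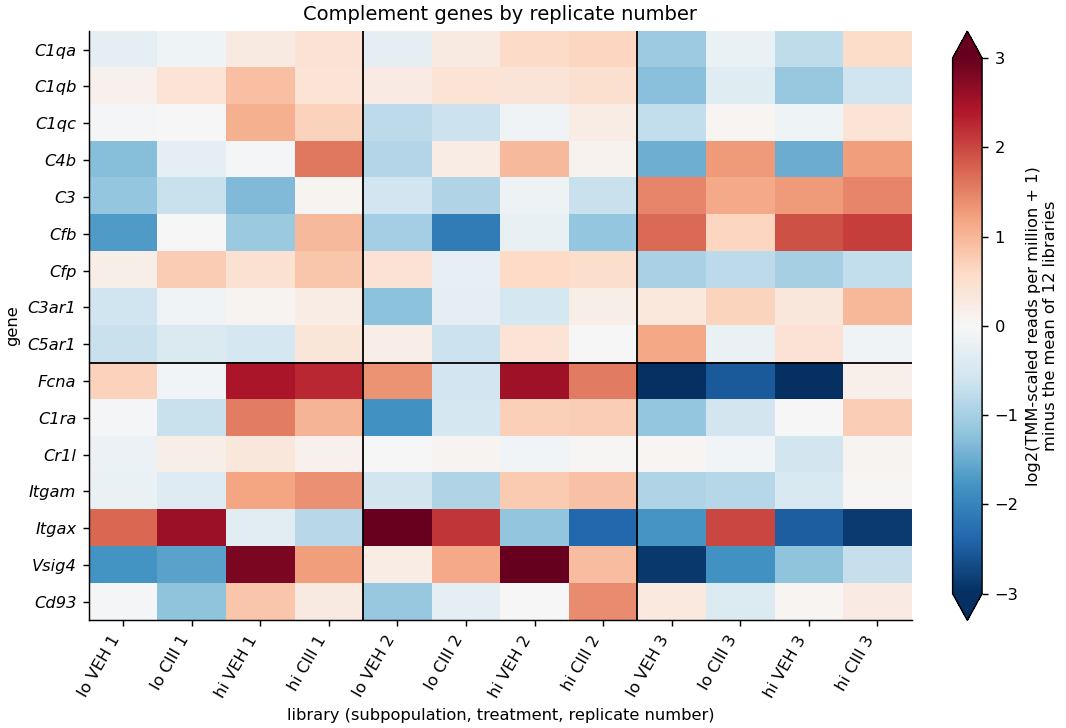
Log2 of TMM-scaled RPM plus 1 minus the mean of the 12 libraries, for the 9 complement genes (above the black line) and 7 further complement genes, with libraries ordered by replicate number; red is above and blue below the mean, and the colours end at −3 and 3. C3, Cfb and C3ar1 are red and C1qb and Cfp blue in all 4 libraries of number 3.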

How the data were processed

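Libraries were made by the authors with the QuantSeq 3′ mRNA-Seq kit with unique molecular identifiers (UMI) and run through the Bluebee pipeline: trimming with Bbduk, mapping to GRCm38 with STAR, UMI collapsing and counting with HTSeq-count. Versions, the gene annotation and the strand setting of the counting are not given in the sources used here. The values the authors deposited are normalized counts, a signal made by dividing whole reads by 1 DESeq2 size factor per library, set separately for each subpopulation. Whole reads were recovered for 100% of the values (tolerance 0.01). Libraries held 426624 to 3389448 reads on genes. Symbols and coordinates from GENCODE matched 47224 of 47643 identifiers.

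Groups follow the labels, with 3 libraries each. Within a subpopulation, CIII and VEH were compared with limma 3.58.1 (R 4.3.3, two-sided, mean-variance trend) on log2 values of the deposited counts (pseudocount 1), which understate changes of weakly expressed genes, for genes with a mean of at least 3. Between subpopulations, and for the difference of the CIII responses, limma was fitted over all 12 libraries on log2 TMM-scaled reads per 1000000 (RPM, pseudocount 1). P-values were adjusted over all genes tested (Benjamini-Hochberg, threshold 0.05). The fits were tested on simulated data. Alternatives were other pseudocounts, filters and scalings, array weights, left-out libraries, blocks, edgeR 4.0.16 and DESeq2 1.42.0 on the recovered reads. The edgeR fit with the replicate block was chosen after seeing the data. The 9 genes, the other complement genes and the marker lists were chosen with earlier results of these data known. Genes named were the 9 members, every listed complement gene called in a comparison, those of each list with the highest mean and, for likeness of pattern, the 3 genes with the highest correlation among those with a mean of at least 10. One listed gene is not reported here. Calr, C5ar2, C2, C4a and Cfd were named after their values were seen.

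The replicate numbers were taken as pairs because the deviations from the group means of libraries with the same number correlated by more than 0.1 in every pair. The correlation across genes of these deviations, between VEH and CIII, was 0.121 (number 1), 0.238 (number 2) and 0.504 (number 3) among F4/80lo libraries, and 0.216, 0.412 and 0.639 among F4/80hi libraries. VEH library 1 correlated more with CIII library 2 than with CIII library 1 (0.171 in F4/80lo, 0.285 in F4/80hi), so for number 1 these values do not single out the pair between treatments. Between F4/80lo and F4/80hi libraries it was 0.395, 0.386 and 0.691 with VEH and 0.263, 0.306 and 0.482 with CIII. The labels say nothing of pairs.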

Additional observations from a re-analysis of the deposited data

How the results depend on the processing

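Called genes moved with the processing. For CIII against VEH, F4/80lo Mϕ gave 2 genes with array weights, 12 without replicate 3, 4 in edgeR with the replicate block and 2 in DESeq2, none a complement gene, and 0 otherwise; F4/80hi Mϕ and the difference of the responses gave 0 throughout. Between subpopulations, 2 genes became 10 with a pseudocount of 5, 4 with reads per 1000000, 0 with no filter, 0 in VEH libraries alone, 270 with array weights, 348 without replicate 3, 279 with the replicate block, 334 in edgeR with that block, 549 with the treatment and number block and 140 in DESeq2. Leaving out 1 library gave 0 to 142 genes: 142 without F4/80hi VEH 3, 39 without F4/80lo VEH 3, 9 without F4/80hi CIII 3, 1 without F4/80lo CIII 3 and 0 without any of the others. The cause was not tested. Apart from the calls of C1qc and Cfb given above, the replicate pairing changed no call on the 9 genes.

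For CIII against VEH, the directions of C4b, C1qa, C3ar1 and, in F4/80lo Mϕ, C1qc and C5ar1 were the same under all alternatives run, with C4b at 1.03 to 1.99 and 0.34 to 1.71 for F4/80lo and F4/80hi. Reversed log2 estimates for CIII against VEH were, for F4/80lo, C3 0.32 (array weights), 0.07 (without replicate 3) and 0.035 (reads per 1000000), Cfb 1.06 (array weights) and 0.29 (without replicate 3), and Cfp −0.06 (without replicate 3). Reversed for F4/80hi were C1qb −0.00043 (pseudocount 5), −0.19 (array weights), −0.24 (without replicate 3), −0.14 (edgeR) and −0.15 (DESeq2), C1qc −0.033 (array weights) and −0.06 (without replicate 3), C5ar1 0.23 (array weights), 0.21 (without replicate 3) and 0.055 (reads per 1000000), Fcna −0.63 (without replicate 3), −0.39 (edgeR) and −0.41 (DESeq2), and Cr1l −0.019 (array weights) and −0.09 (without replicate 3). Between subpopulations the reversed ones were C1qb 0.056 (CIII alone), C5ar1 0.12 (VEH alone) and Cr1l −0.072 (array weights), −0.09 (without replicate 3), −0.0075 (DESeq2) and −0.027 (CIII alone).

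With 1 library left out, log2 estimates that changed sign ranged as follows. For F4/80lo, C1qb ran from −0.049 to 0.74, C3 from −0.68 to 0.71, Cfb from −0.79 to 0.85, Cfp from −0.41 to 0.39, Fcna from −2.09 to 0.71 and Itgam from −0.36 to 0.044. For F4/80hi, C1qb ran from −0.59 to 0.43, C1qc from −0.083 to 0.52, C3 from −0.31 to 0.98, Cfb from −0.32 to 1.29, Cfp from −0.37 to 0.61, C5ar1 from −0.37 to 0.21, Fcna from −1.22 to 1.89, Cr1l from −0.089 to 0.36 and Itgam from −0.27 to 0.58. Between subpopulations, C1qb ran from −0.44 to 0.094, C3 from −0.62 to 0.10, C5ar1 from −0.45 to 0.029 and Cr1l from −0.10 to 0.13. The difference of the responses of C4b ran from −0.14 to 1.10. Reads per 1000000 moved the median of all genes in F4/80hi Mϕ from 0.05 to 0.15. The depth limits Cfb most, with 10 reads in the shallowest library.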

Other observations

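Over the 12 libraries, the genes most like each complement gene in pattern (Pearson r of log2 TMM-scaled RPM with a pseudocount of 1, among 8439 genes) were Rab11fip5 for C1qa (r = 0.945), Slc35f5 for C1qb (r = 0.960), Thap11 for C1qc (r = 0.944), Skap2 for C4b (r = 0.906), Txlna for C3 (r = 0.960), Tbk1 for Cfb (r = 0.943), Cox15 for Cfp (r = 0.945), Tnfaip2 for C3ar1 (r = 0.968) and Ppp4r3a for C5ar1 (r = 0.874). The next closest were Cgnl1 and Manea for C1qa, Ska1 and Dusp7 for C1qb, Lamp1 and H2-D1 for C1qc, Cds2 and Ctnnb1 for C4b, Runx1 and Snx18 for C3, Gna13 and Pdcd10 for Cfb, Sepsecs and Dnajc16 for Cfp, Atp8a1 and Nod1 for C3ar1, and Washc2 and Mapkap1 for C5ar1. These correlations describe libraries that share their sort, depth and replicate number, and the libraries of number 3 stand apart in many genes.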
